A study of Mus musculus with 6 samples.

Results

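The subunits of the ionotropic GABA, glycine, and glutamate receptors were followed in the hypothalamus of mice labeled as lacking *Slug* in leptin receptor cells. Members were taken by gene symbol (the *Gabr*, *Glr*, *Gria*, *Grin*, *Grik*, and *Grid* families), using rows of the deposited table that carry 1 symbol and the brightest row of each gene. This gave 37 genes of the 21507 tested. They comprised 9 alpha, beta, and gamma subunits of the GABA-A receptor, 7 delta, epsilon, pi, theta, and rho subunits, 5 glycine receptor subunits, 4 AMPA, 6 NMDA, and 5 kainate receptor subunits, and 1 delta glutamate receptor.

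Total hypothalamic RNA was measured on 6 Affymetrix whole-transcript arrays. Of these, 3 were labeled Slug ΔLepRb, meaning male Slug fl/fl mice with homozygous *LepRb-Cre*, and 3 were labeled Slug fl/fl, males with the same floxed *Slug* alleles and no *Cre*. The arrays were meant to show which hypothalamic genes differ when *Slug* is deleted in these cells. The *Slug* signal in them ran against the labels, as described below. The labels name a chow diet and an age of 8 weeks, whereas the study's methods give an older one. The labels speak of a CreERT2 driver and the methods of a *Cre* knockin in the leptin receptor gene, and no *Cre*-only array was analysed here. *Cre* was meant to act in leptin receptor cells alone, while the RNA came from the whole tissue, where fewer cells of a type and less RNA per cell cannot be told apart. The number of mice behind each array is not given in the sources used here, so the p-values measure only the spread between arrays.

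The deleted gene, *Slug* (*Snai2*, a zinc finger repressor), ran against its label. It measured 10.36, 9.68, and 10.49 (log2) in the Slug ΔLepRb-labeled arrays, against 3.79, 4.23, and 4.23 in the Slug fl/fl-labeled arrays. The difference was 6.09 ± 0.21 (SE) in log2 values with an adjusted p of 1.6e-06 (limma). The *Slug* signal was thus far higher in the arrays labeled as lacking it, and the contrast is not read below as a loss of *Slug*. Where its probes lie relative to the deleted segment is not given in the sources used here, so the signal does not check the deletion. The cause of this difference was not tested. Whether the labels of the groups were exchanged was not tested, and every direction below rests on the labels as deposited. Of 20 listed markers of hypothalamic neurons, 19 were measured and 15 of them were not below the all-gene median. Among them *Hdc*, for histamine synthesis, was higher (log2 fold change 0.44) and *Avp* (vasopressin) was lower (−0.46), both past the threshold described below and without overlap, and 3 had an unadjusted p under 0.05 (limma). The 6 arrays correlated at 0.991 to 0.993 with each other, and their medians were 4.04 to 4.07.

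Fast signaling in the brain runs through these receptors. GABA-A and glycine receptors are pentameric chloride channels that usually inhibit the adult neuron, and AMPA, NMDA, and kainate receptors are tetrameric cation channels that excite it. Subunit choice sets where a channel sits, how fast it closes, and what it lets through. In the hypothalamus, GABA and glutamate are the main fast transmitters of the feeding and neuroendocrine circuits that leptin reaches, and glycine receptors are present beside them.

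*Grin2c*, which encodes the GluN2C subunit of the NMDA receptor, was higher in Slug ΔLepRb-labeled arrays, and *Glra1*, which encodes the alpha1 subunit of the glycine receptor, was lower. They were the 2 members past the study's threshold, a change of more than 25% up or down with an unadjusted p under 0.05, taken here from limma, and 35 members did not pass it. With the per-gene test that the study's methods name in place of limma, *Grin2c* passed and *Glra1* did not. By limma, 1 of 37 members was higher (2.7%), where 1.44% of all genes were, and 1 of 37 lower (2.7%), where 0.577% were. The fold limits are not symmetric, and with the labels of the groups exchanged, *Glra1* and *Glra2* would count as higher and no member as lower (2 and 0 of 37, beside 268 and 134 of all 21507 genes). No member passed an adjusted p of 0.05, the smallest being 0.79 (limma, Benjamini-Hochberg over all genes), and 0.0139% of all genes did. An unadjusted p under 0.05 was found for 4 members (10.8%), *Grin2c*, *Glra1*, *Glra2*, and *Grin2a*, and for 5.85% of all genes.

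The groups did not overlap for 5 members. *Grin2c* was the 1 such member that was higher (2.7%, against 5.91% of all genes), and *Glra1*, *Glra2*, *Glrb*, and *Grin2a* were lower (10.8%, against 5.56% of all genes). The median log2 fold change was −0.04 over the members and 0.00 over all genes, with 17 members above 0 and 20 below. For 32 of the 37 (86.5%) the fold change was within 0.2 of 0, as it was for 85.1% of all genes. The 95% confidence interval lay wholly inside the fold limits of the threshold for 21 members, and for the rest it reached past a limit.

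**Figure D1:**
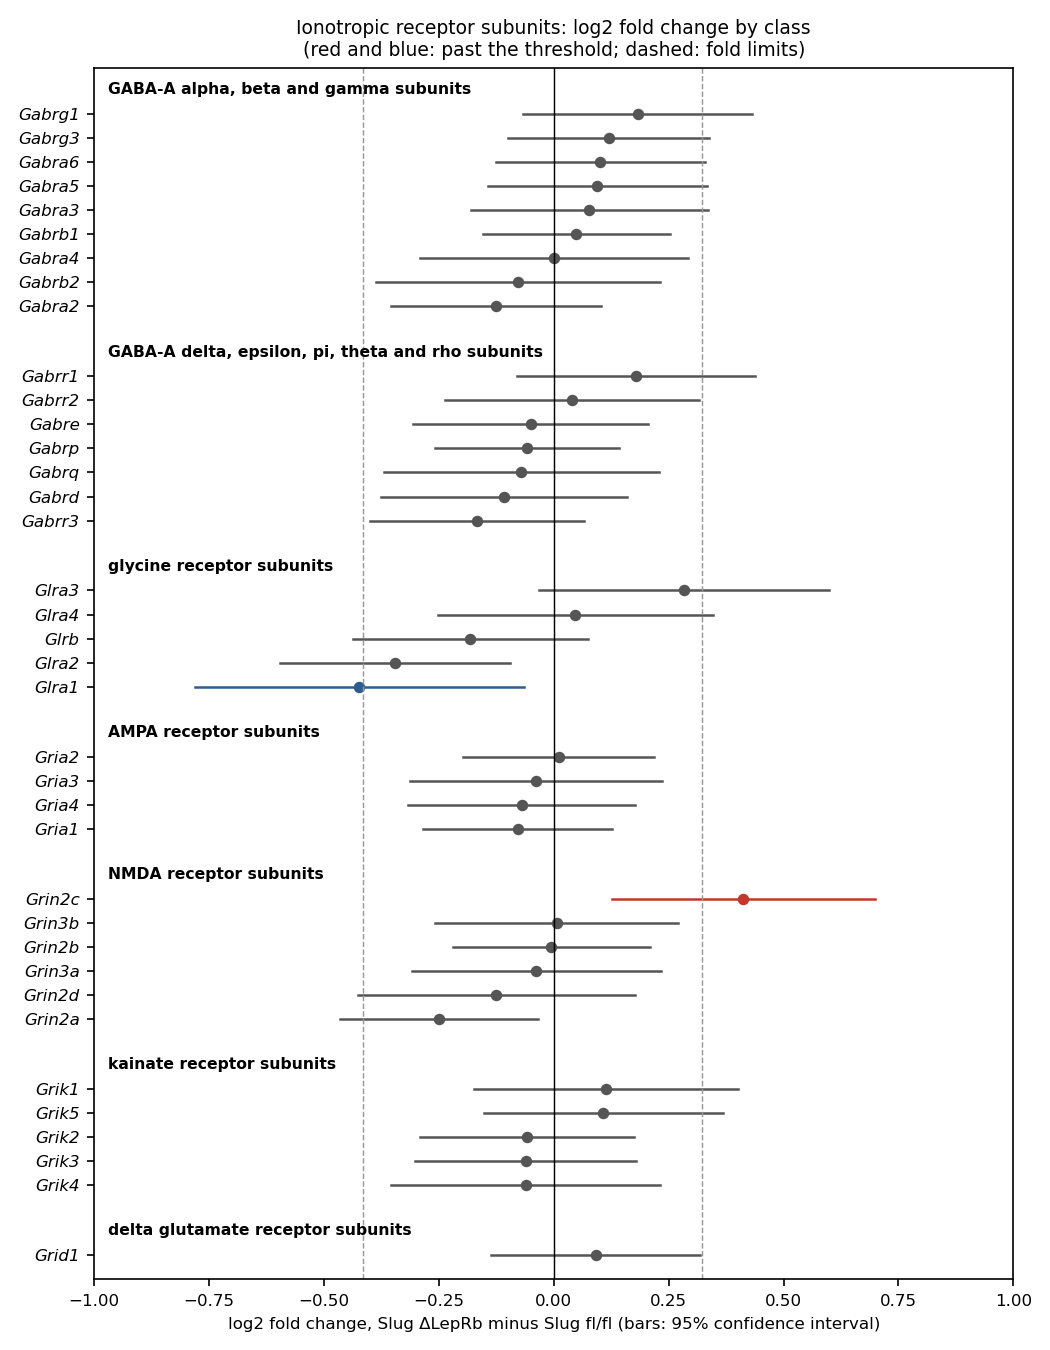
Log2 fold change of each of the 37 subunits, Slug ΔLepRb minus Slug fl/fl, grouped by receptor class, with 95% confidence intervals from limma (3 arrays per group) and dashed lines at the fold limits of the study's threshold. *Grin2c* (0.41) and *Glra1* (−0.42) pass the threshold, and 33 of the 37 intervals span 0.

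Groups that did not overlap were found for 3 of 5 glycine receptor subunits, 2 of 6 NMDA receptor subunits, and 0 members of the other classes. Of all genes, 5.91% were higher and 5.56% lower without overlap. Counts in classes this small were not tested and are not read as a trait of a class. Glycine receptors are built from alpha subunits, which bind the ligand, and the beta subunit, which anchors the channel to gephyrin at the synapse. *Glra1*, the adult form of brainstem and spinal cord that is mutated in startle disease, measured 6.85, 6.95, and 6.71 (log2) in the Slug ΔLepRb-labeled arrays, against 7.65, 7.11, and 7.02 in the Slug fl/fl-labeled arrays. The groups did not overlap, but Slug ΔLepRb array 2 and Slug fl/fl array 3 lay close together, and Slug fl/fl array 1 stood well above the other two. The difference in log2 values for *Glra1*, −0.42 ± 0.16 (SE), had an adjusted p of 0.84 (limma) and stands for a level 25.4% lower. Without Slug fl/fl array 1 it was −0.23 and without Slug ΔLepRb array 3 it was −0.36, and either omission ended the call. The methods' own per-gene test, which leaves the fold change as it is, also ended it.

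*Glra2*, the alpha subunit that predominates in immature neurons, measured 7.74, 7.52, and 7.67 (log2) in the Slug ΔLepRb-labeled arrays, against 8.08, 8.08, and 7.82 in the Slug fl/fl-labeled arrays. The groups did not overlap, and no single array set them apart. The difference in log2 values for *Glra2*, −0.35 ± 0.11 (SE), had an adjusted p of 0.81 (limma). A ratio of 0.787 kept this gene outside the study's limit of 0.75, so it was not counted as lower. Without Slug fl/fl array 3 it was −0.43 and passed.

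*Glrb*, the beta subunit, measured 8.79, 8.74, and 8.74 (log2) in the Slug ΔLepRb-labeled arrays, against 9.16, 8.86, and 8.79 in the Slug fl/fl-labeled arrays. The groups touched without overlapping, since the lowest Slug fl/fl array and the highest Slug ΔLepRb array nearly coincided. Its log2 difference was −0.18 ± 0.11 (SE), with an adjusted p of 0.87 (limma), and −0.07 without Slug fl/fl array 1, the array in which *Glra1* was also highest. *Glrb* was described with its class after its values were seen.

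*Glra3*, an alpha subunit known from pain-related neurons of the spinal dorsal horn, pointed the other way. It measured 7.66, 7.48, and 7.80 (log2) in the Slug ΔLepRb-labeled arrays, against 7.44, 7.57, and 7.08 in the Slug fl/fl-labeled arrays. The groups overlapped, with Slug fl/fl array 3 far below the rest. The difference in log2 values for *Glra3*, 0.28 ± 0.14 (SE), had an adjusted p of 0.85 (limma), and it passed the threshold without Slug fl/fl array 2 (0.39) or without Slug ΔLepRb array 2 (0.37). *Glra4*, whose human counterpart is a pseudogene, was dim (below the all-gene median in either group), at 3.82 ± 0.21 and 3.77 ± 0.17 (SD, n = 3 each) in the arrays labeled Slug ΔLepRb and Slug fl/fl.

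**Figure D2:**
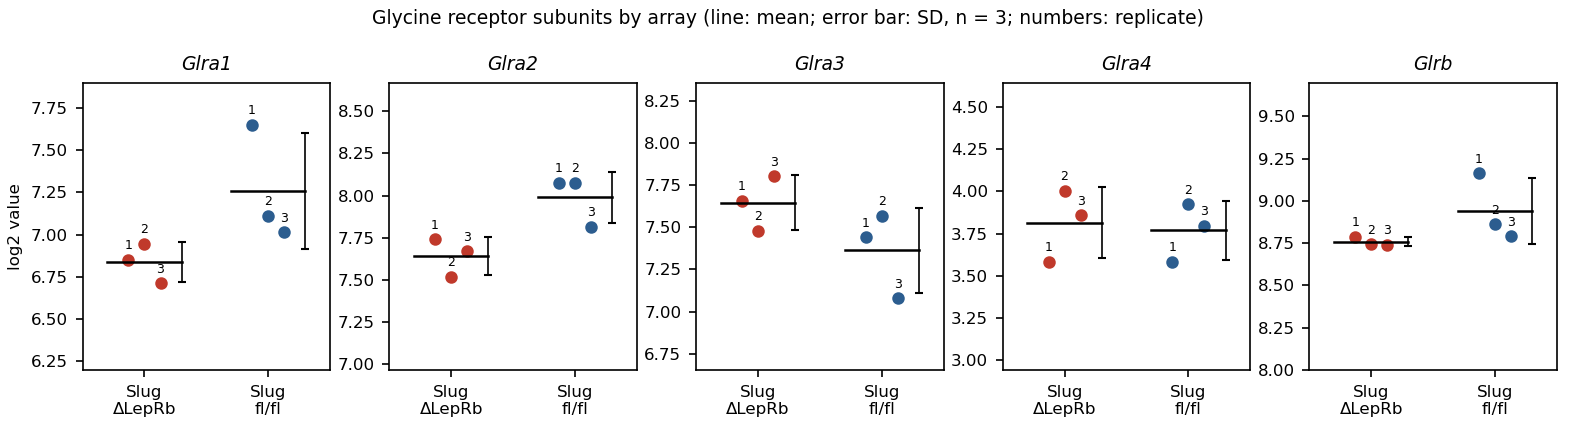
Log2 values of the 5 glycine receptor subunits in each array, on a separate axis of equal span for each gene, with the mean as a line, the SD (n = 3) as an error bar, and the replicate number beside each point. *Glra1*, *Glra2*, and *Glrb* have no overlap between the 3 arrays labeled Slug ΔLepRb (left) and the 3 labeled Slug fl/fl (right), and Slug fl/fl array 1 is the highest for *Glra1* (7.65) and *Glrb* (9.16).

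Within an array, the distance of 2 alpha subunits gives a measure that a scaling of the whole array cannot move. *Glra2* minus *Glra3* was 0.08, 0.04, and −0.13 (log2) in the Slug ΔLepRb-labeled arrays, against 0.64, 0.51, and 0.74 in the Slug fl/fl-labeled arrays. The groups did not overlap on this difference and their means were apart by −0.63. *Glra1* minus *Glra3* was −0.80, −0.53, and −1.09 in the Slug ΔLepRb-labeled arrays, against 0.21, −0.46, and −0.07 in the Slug fl/fl-labeled arrays. The means were apart by −0.71, but array 2 of each group lay close to the other. These 2 contrasts were formed after the values were seen and were not tested. As the probes differ, the size of such a difference within an array has no meaning of its own, and only its shift between groups was read.

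The upstream sequences of the glycine receptor genes in which the groups did not overlap are shown because *Slug* is a repressor that binds E boxes (CANNTG) and prefers the form CAGGTG or its reverse complement CACCTG, the E2 box. The 100 bases before the start site are given for *Glra2* (chrX:165327394-165327493, minus strand) and for *Glrb* (chr3:80913661-80913760, minus strand), from RefSeq promoters on GRCm38.p6, with E boxes in capitals. No window was listed for *Glra1*.
Glra2: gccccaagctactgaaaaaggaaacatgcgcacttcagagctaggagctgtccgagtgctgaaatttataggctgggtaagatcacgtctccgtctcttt
Glrb: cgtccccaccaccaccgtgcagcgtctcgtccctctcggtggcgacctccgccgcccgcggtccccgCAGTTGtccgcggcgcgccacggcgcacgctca
The *Glra2* stretch held no E box and the *Glrb* stretch held 1, which is not of the E2 form. They also differed in base composition, at 49.0% and 77.0% G and C. *Glrb* lies beside *Gria2*, a glutamate receptor gene, on chromosome 3, and the 2 neighbors had log2 fold changes of −0.18 and 0.01.

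In the NMDA receptor, GluN2 subunits bind glutamate and set how long the channel stays open, and GluN3 subunits bind glycine and lower the passage of calcium. *Grin2c* is known from cerebellar granule cells, thalamus, and astrocytes, and gives channels with weak magnesium block. It measured 4.66, 5.11, and 4.77 (log2) in the Slug ΔLepRb-labeled arrays, against 4.49, 4.48, and 4.33 in the Slug fl/fl-labeled arrays. All 3 Slug ΔLepRb arrays were above all 3 Slug fl/fl arrays, and Slug ΔLepRb array 2 was the highest. These values are low, with a Slug fl/fl mean of 4.43 beside an all-gene median of 4.18, and detection above background could not be checked. The difference in log2 values for *Grin2c*, 0.41 ± 0.13 (SE), had an adjusted p of 0.79 (limma) and stands for 1.33-fold. Without Slug ΔLepRb array 2 the difference was 0.28, under the fold limit, which ended the call.

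Markers of cells and regions that use *Grin2c* were set beside it. Of 10 listed astrocyte markers, 9 were measured, all above the all-gene median in 1 group or both, and 1 was past the threshold. That gene, *Gjb6* (connexin 30), had a log2 fold change of 0.35 with overlapping groups. The summed linear level of the astrocyte list was 2574 to 2755 in the Slug ΔLepRb-labeled arrays, against 2522 to 2801 in the Slug fl/fl-labeled arrays, and its median log2 fold change was −0.10. No thalamic (9 of 9 measured) or cerebellar (6 of 8 measured) marker was past the threshold, where 1.44% of all genes were higher and 0.577% lower. The summed linear level was 696 to 767 in the Slug ΔLepRb-labeled arrays against 566 to 850 in the Slug fl/fl-labeled arrays for the thalamic list, and 782 to 843 against 730 to 937 for the cerebellar list. Such sums are weighted toward the brightest gene of a list and do not measure how much of a tissue or cell type was present. In the Slug ΔLepRb-labeled arrays the brightest were *Aldoc* for astrocytes (mean log2 value 10.22), *Calb2* for thalamus (8.66), and *Calb1* for cerebellum (9.34). Within its group, Slug fl/fl array 3 was highest for every thalamic marker except *Rora*, as for *Prkcd* (6.69, against 5.31 and 5.75). *Grin2c* was lowest in that array. The part of these markers in the *Grin2c* difference was not tested.

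*Grin2a*, the GluN2A subunit of mature synapses with fast closure, measured 5.15, 5.16, and 5.17 (log2) in the Slug ΔLepRb-labeled arrays, against 5.41, 5.52, and 5.30 in the Slug fl/fl-labeled arrays. The groups did not overlap, and the Slug ΔLepRb arrays were almost identical, with an SD of 0.01 against 0.11 in the Slug fl/fl arrays. The log2 difference, −0.25 ± 0.10 (SE), had an adjusted p of 0.84 (limma), and the ratio of 0.842 stayed inside the fold limits. With any single array other than Slug fl/fl array 3 left out, the unadjusted p of *Grin2a* was no longer under 0.05. *Grin2b*, the GluN2B subunit with slower closure, measured 7.76, 7.59, and 7.64 (log2) in the Slug ΔLepRb-labeled arrays, against 7.63, 7.65, and 7.74 in the Slug fl/fl-labeled arrays. Its groups lay on top of each other, with a log2 fold change of −0.01 (95% confidence interval −0.22 to 0.21). A second, dim row of *Grin2b* gave 0.10.

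The remaining NMDA subunits did not pass the test. *Grin2d*, the GluN2D subunit of very slow closure found in interneurons and midline regions, had a log2 fold change of −0.12 (95% confidence interval −0.43 to 0.18). For *Grin3a* it was −0.04, and for *Grin3b*, which was dim, it was 0.01.

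**Figure D3:**
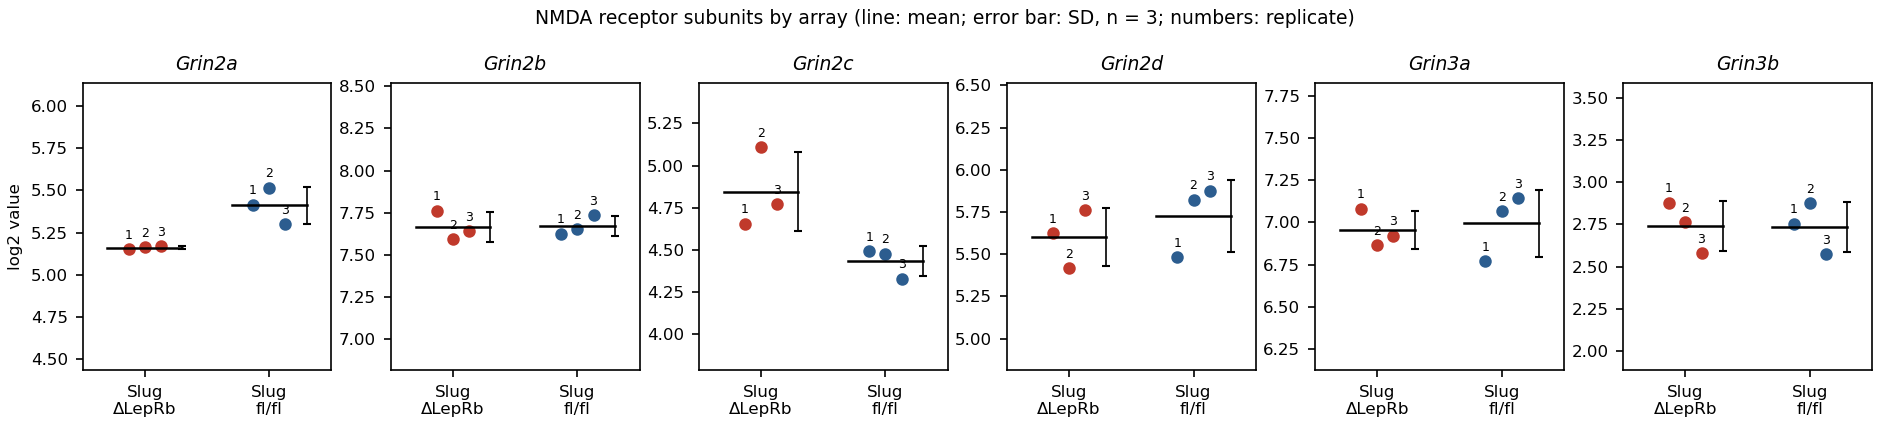
Log2 values of 6 NMDA receptor subunits in each array, on a separate axis of equal span for each gene, with the mean as a line, the SD (n = 3) as an error bar, and the replicate number beside each point. For *Grin2c* the 3 arrays labeled Slug ΔLepRb (left) lie above the 3 labeled Slug fl/fl (right), for *Grin2a* they lie below them and within 5.15 to 5.17, and the groups overlap for the others.

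The 100 bases upstream of *Grin2c* (chr11:115267244-115267343, minus strand, GRCm38.p6, RefSeq) are shown for the same reason as above.
Grin2c: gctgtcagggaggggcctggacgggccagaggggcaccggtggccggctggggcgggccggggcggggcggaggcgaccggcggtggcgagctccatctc
This stretch held no E box, and neither did the whole window of 300 bases around the start. G and C made up 81.0% of it. No window was listed for *Grin2a*.

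AMPA receptors carry most fast excitation, and all 4 subunits had fold changes within 0.1 of 0 on the log2 scale. *Gria1*, the GluA1 subunit that is added to synapses in potentiation, measured 9.66, 9.59, and 9.55 (log2) in the Slug ΔLepRb-labeled arrays, against 9.72, 9.63, and 9.69 in the Slug fl/fl-labeled arrays. *Gria2*, whose edited GluA2 subunit keeps the channel closed to calcium, had 9.76, 9.79, and 9.80 (log2) in the Slug ΔLepRb-labeled arrays, against 9.85, 9.78, and 9.69 in the Slug fl/fl-labeled arrays. The groups overlapped for both genes, and none of the 4 AMPA subunits passed the test. The class ranged from −0.08 (*Gria1*, 95% confidence interval −0.28 to 0.13) to 0.01 (*Gria2*, −0.20 to 0.22), with *Gria3* at −0.04 and *Gria4* at −0.07.

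Kainate receptors modulate release and excitability, with GluK1 to GluK3 forming channels by themselves and GluK4 and GluK5 needing a partner. *Grik1*, with the highest fold change of the class, measured 6.18, 5.81, and 5.84 (log2) in the Slug ΔLepRb-labeled arrays, against 5.998, 5.76, and 5.73 in the Slug fl/fl-labeled arrays. The first array of each group was the highest and the groups overlapped, with a log2 fold change of 0.11 (SE 0.13). *Grik4*, with the lowest fold change of the class, measured 6.16, 6.61, and 6.19 (log2) in the Slug ΔLepRb-labeled arrays, against 6.40, 6.44, and 6.31 in the Slug fl/fl-labeled arrays. Slug ΔLepRb array 2 was above every other array and the remaining Slug ΔLepRb arrays were below every Slug fl/fl array, giving a log2 fold change of −0.06 (SE 0.13).

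*Grik2*, the GluK2 subunit, measured 7.63, 7.51, and 7.55 (log2) in the Slug ΔLepRb-labeled arrays, against 7.71, 7.69, and 7.46 in the Slug fl/fl-labeled arrays, and the groups overlapped. The log2 fold changes of the class were −0.06 for *Grik2* and *Grik3* and 0.11 for *Grik5*. No kainate subunit had a p under 0.05. *Grid1*, the delta receptor that joins synapses through cerebellins and is not a classical glutamate-gated channel, measured 7.16, 7.0004, and 7.13 (log2) in the Slug ΔLepRb-labeled arrays, against 7.09, 7.05, and 6.88 in the Slug fl/fl-labeled arrays. Its groups overlapped as well, with a log2 fold change of 0.09 (SE 0.10).

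No GABA-A subunit was past the threshold, had a p under 0.05, or had groups that did not overlap. Most GABA-A receptors join alpha and beta subunits, between which GABA binds, with a gamma subunit that holds the channel at the synapse. The 9 alpha, beta, and gamma subunits had log2 fold changes of −0.13 to 0.18, with 7 above 0 and 2 below. The highest fold change was that of *Gabrg1*, the gamma1 subunit, which measured 7.99, 8.25, and 8.25 (log2) in the Slug ΔLepRb-labeled arrays, against 8.02, 8.07, and 7.86 in the Slug fl/fl-labeled arrays. Its groups overlapped through Slug ΔLepRb array 1, and the log2 difference, 0.18 ± 0.11 (SE), had an adjusted p of 0.87 (limma).

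*Gabra2*, the alpha2 subunit that is enriched on the axon initial segment, had the lowest fold change of these. It measured 7.95, 7.68, and 7.85 (log2) in the Slug ΔLepRb-labeled arrays, against 7.98, 7.94, and 7.94 in the Slug fl/fl-labeled arrays. The Slug fl/fl arrays were tightly grouped at the upper end of the wider Slug ΔLepRb range (SD 0.14 in the Slug ΔLepRb arrays and 0.02 in the Slug fl/fl arrays), with a log2 fold change of −0.13 (SE 0.10). Among the other alpha subunits, the fold change was 0.08 for *Gabra3*, 0.00 for *Gabra4*, and 0.09 for *Gabra5*, the alpha5 subunit of tonic currents. *Gabra6*, which is nearly restricted to cerebellar granule cells, was dim in all arrays (1.62 to 1.91).

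GABA-A genes lie in clusters that hold several subunits, and fold changes within a cluster were set side by side. On chromosome 5, where *Gabrg1*, *Gabra2*, *Gabra4*, and *Gabrb1* lie near each other, the log2 fold changes were 0.18, −0.13, 0.00, and 0.05. On chromosome 7 the neighbors *Gabrg3* and *Gabra5* had 0.12 and 0.09. *Gabra6* and *Gabrb2*, neighbors on chromosome 11, had 0.10 and −0.08. These are descriptions, and none of the fold changes passed the threshold.

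The delta, epsilon, theta, pi, and rho subunits replace gamma or make channels of their own. *Gabrd*, the delta subunit of extrasynaptic channels sensitive to neurosteroids, measured 3.32, 3.31, and 3.29 (log2) in the Slug ΔLepRb-labeled arrays, against 3.23, 3.35, and 3.66 in the Slug fl/fl-labeled arrays. The Slug ΔLepRb arrays fell inside the Slug fl/fl range, and Slug fl/fl array 3 stood above the rest. The log2 fold change of *Gabrd* was −0.11 (SE 0.12), with an SD of 0.01 and 0.22 in the arrays labeled Slug ΔLepRb and Slug fl/fl. *Gabre* and *Gabrq*, the epsilon and theta subunits that the hypothalamus and brainstem express more than most of the brain, had log2 fold changes of −0.05 and −0.07.

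The rho subunits, known best from retinal bipolar cells, gave both ends of this class. *Gabrr1* measured 2.16, 2.28, and 2.25 (log2) in the Slug ΔLepRb-labeled arrays, against 2.04, 2.26, and 1.87 in the Slug fl/fl-labeled arrays, a log2 fold change of 0.18 (SE 0.12). *Gabrr3* had 2.49, 2.25, and 2.22 (log2) in the Slug ΔLepRb-labeled arrays, against 2.45, 2.53, and 2.49 in the Slug fl/fl-labeled arrays, a log2 fold change of −0.17 (SE 0.10). Both genes overlapped between groups and were dim. In all, 8 of the 37 members had means under the all-gene median of 4.18 in both groups, 5 of them in this class of 7, and whether they were above background could not be read from the table.

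**Figure D4:**
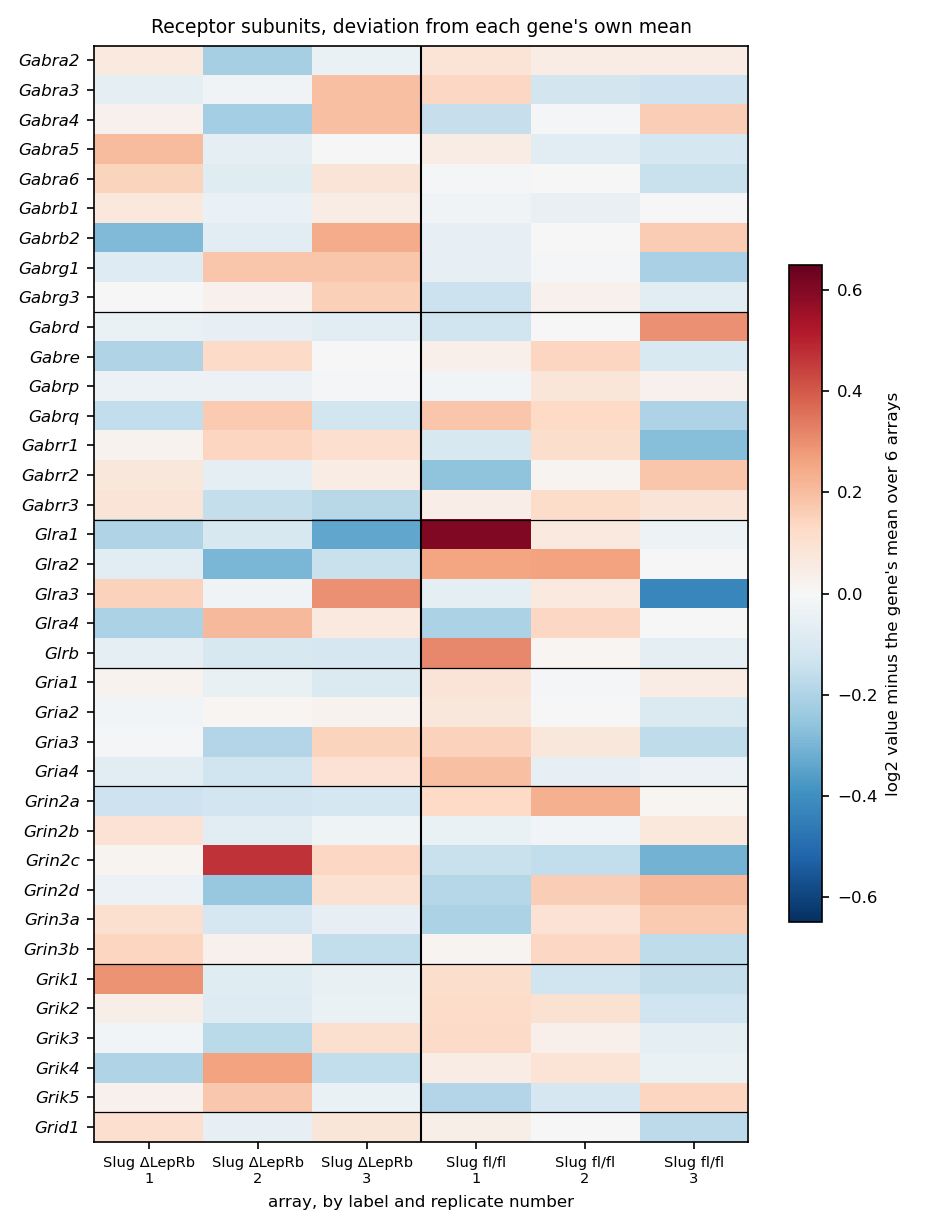
Log2 value of each of the 37 subunits in each array minus that gene's own mean over the 6 arrays, with the 3 arrays labeled Slug ΔLepRb on the left and the 3 labeled Slug fl/fl on the right, and lines between receptor classes. Single arrays stand out for *Glra1* and *Glrb* (Slug fl/fl array 1), *Glra3* (Slug fl/fl array 3), and *Grin2c* (Slug ΔLepRb array 2).

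The mean over the members was close in all 6 arrays. Their mean log2 value was 6.41 to 6.46 in the Slug ΔLepRb-labeled arrays and 6.40 to 6.48 in the Slug fl/fl-labeled arrays. Slug ΔLepRb array 2 was the lowest of its group for 18 of the 37 members, and Slug fl/fl array 3 was the lowest of its group for 21.

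Whether subunits of a class moved unequally was tested with the difference of 2 subunits within each array. Of 6 pairs planned, 4 could be computed, since the others include a subunit not analysed here, and p-values were adjusted over the 4. *Grik1* minus *Grik2* was −1.45, −1.70, and −1.71 (log2) in the Slug ΔLepRb-labeled arrays, against −1.71, −1.93, and −1.73 in the Slug fl/fl-labeled arrays. Every Slug ΔLepRb array was above every Slug fl/fl array, but only just. Slug ΔLepRb array 3 (−1.708) and Slug fl/fl array 1 (−1.710) nearly coincided. The groups differed by 0.17 (exact permutation p = 0.10, two-sided, which 3 arrays against 3 cannot go below, adjusted p = 0.40). After quantile normalization they were no longer fully apart (difference 0.18, exact permutation p = 0.30). *Grin2a* minus *Grin2b* differed by −0.24 (exact permutation p = 0.20, adjusted p = 0.40), with Slug fl/fl array 3 among the Slug ΔLepRb arrays. *Gria1* minus *Gria2* differed by −0.09 (exact permutation p = 0.30, adjusted p = 0.40) and *Glra1* minus *Glra2* by −0.08 (exact permutation p = 0.70, adjusted p = 0.70).

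**Figure D5:**
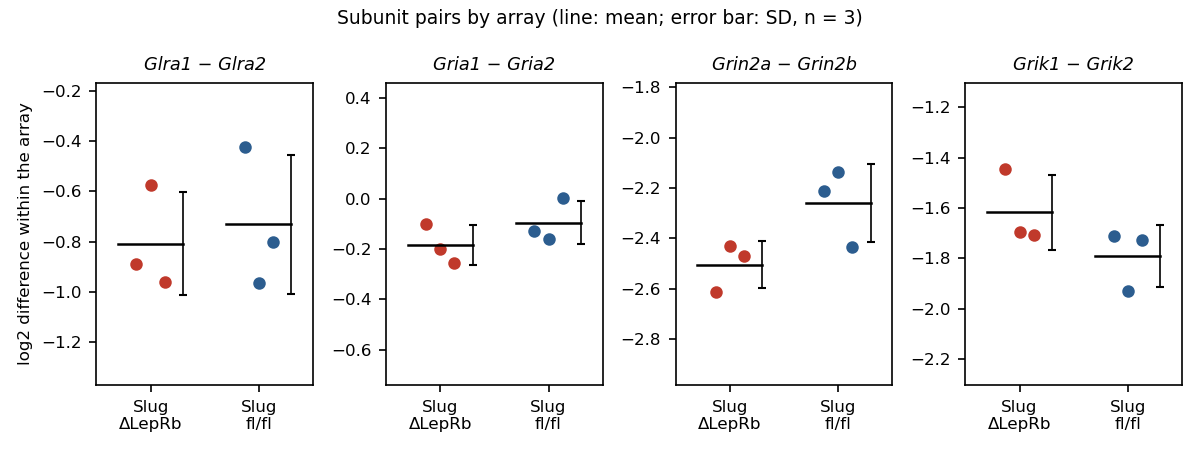
Difference of the log2 values of 2 subunits within each array for the 4 pairs, with arrays labeled Slug ΔLepRb on the left and Slug fl/fl on the right, the mean as a line, and the SD (n = 3) as an error bar. Axes have equal spans, and their zero has no meaning because the probes of 2 genes differ. *Grik1* minus *Grik2* is the 1 pair with no overlap between groups, though Slug ΔLepRb array 3 (−1.708) and Slug fl/fl array 1 (−1.710) nearly coincide.

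No listed protein that traffics, anchors, or gates these receptors was past the threshold. Of 22 measured partners of GABA-A and glycine receptors (25 listed), 0 were past the threshold in either direction and 0 had an unadjusted p under 0.05 (limma). Their median log2 fold change was 0.02, and 3 were higher without overlap. Of all genes, 1.44% were higher and 0.577% lower past the threshold, and 5.85% had such a p. Without overlap, 5.91% of all genes were higher and 5.56% lower. Beside these shares, the counts in lists this small are not read as a trait of the partners. *Gphn* (gephyrin), the scaffold that *Glrb* binds, measured 8.18, 7.98, and 8.21 (log2) in the Slug ΔLepRb-labeled arrays, against 8.28, 8.24, and 8.08 in the Slug fl/fl-labeled arrays. Its groups overlapped, with a log2 fold change of −0.08 (SE 0.11).

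Of 27 measured AMPA receptor partners (29 listed), such as TARPs and cornichons, 0 were past the threshold and 0 had an unadjusted p under 0.05 (limma). Their median was 0.03, and 2 were higher without overlap. Of 22 partners of NMDA, kainate, and delta receptors (24 listed), 0 were past the threshold and 1 had an unadjusted p under 0.05, with a median of 0.01. That gene, *Dlg1* (SAP97, a scaffold of AMPA and NMDA receptors), was 7.66, 7.51, and 7.66 (log2) in the Slug ΔLepRb-labeled arrays, against 7.95, 7.91, and 7.81 in the Slug fl/fl-labeled arrays. The groups did not overlap, and the log2 difference, −0.28 ± 0.10 (SE), had an adjusted p of 0.84 (limma).

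Of 9 measured metabotropic GABA and glutamate receptors (10 listed), which signal through G proteins, 0 were past the threshold and 1 had an unadjusted p under 0.05. This was *Grm4*, a presynaptic inhibitory receptor, at 4.41, 4.30, and 4.29 (log2) in the Slug ΔLepRb-labeled arrays, against 3.89, 4.02, and 4.14 in the Slug fl/fl-labeled arrays. The difference in log2 values for *Grm4*, 0.32 ± 0.10 (SE), had an adjusted p of 0.81 (limma), and the ratio of 1.24 missed the fold limit. *Dlg1*, *Grm4*, and *Gphn* were singled out after their values were seen.

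Markers of neurons were set beside *Glra1* and *Glra2*. Of 12 listed general neuronal markers, all 12 were measured and above the all-gene median in 1 group or both, 10 had a log2 fold change below 0, and 1, *Nefm* (neurofilament medium chain), was past the threshold, at −0.54 with overlapping groups. The summed linear level of the list was 9278 to 9758 in the Slug ΔLepRb-labeled arrays, against 9680 to 10265 in the Slug fl/fl-labeled arrays, and the median log2 fold change was −0.06. *Nefm* was highest in Slug fl/fl array 1, as *Glra1* was. The hypothalamic neuron list, which holds *Avp* and *Hdc*, summed to 3528 to 4120 in the Slug ΔLepRb-labeled arrays, against 3584 to 4235 in the Slug fl/fl-labeled arrays. These sums too are weighted toward the brightest genes, which were *Snap25* in the general list and *Sst* in the hypothalamic list. The part of these markers in the glycine receptor differences was not tested.

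The E2 box was then looked for on both strands of all promoter windows, each 250 bases before to 50 bases after a start. Windows were listed for 28 of the 37 members, and 7 of their 32 windows (21.9%) held at least 1 E2 box, as did 6640 of all 32851 windows (20.2%). Any E box was present in 18 of the 32 (56.25%) and in 23756 of all windows (72.3%). The members with an E2 box were 6 GABA-A genes and 1 kainate receptor gene, and the windows of *Glra2*, *Glra3*, *Glrb*, and *Grin2c* had none. A match of letters is not a binding site.

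The upstream matches nearest to a start site or doubled in a window are shown in 30 bases each, with the E2 box in capitals and distances taken to its first base. They are at chrX:72274711-72274740 (minus strand, 7 bases upstream of *Gabre*), chrX:72824965-72824994 and chrX:72825108-72825137 (plus strand, 201 and 58 bases upstream of *Gabrq*), chr4:33063040-33063069 (plus strand, 60 bases upstream of *Gabrr2*), and, as the glutamate receptor case, chr4:125490496-125490525 (plus strand, 188 bases upstream of *Grik3*), all on GRCm38.p6 from RefSeq.
Gabre: gcgacctctacaCAGGTGgtcgtgccaggc
Gabrq, distal: ctggacccaaccCAGGTGactagtgctggt
Gabrq, proximal: ggattggctcagCAGGTGctgccgtcggag
Gabrr2: ttgtgtcatggtCAGGTGtgtgggggcttg
Grik3: cggcagccggggCAGGTGggaagcccgcgc
The genes with these letters had log2 fold changes of −0.05 (*Gabre*), −0.07 (*Gabrq*), 0.04 (*Gabrr2*), and −0.06 (*Grik3*), and none was past the threshold.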

How the data were processed

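Processed values were deposited by the authors as a single matrix of 6 array columns. The values the authors deposited were processed before deposit (MAS5 is named in the submitters' processing notes) and are taken here as log2, a base inferred from their range of 0.90 to 12.43. Their background correction, normalization, and filtering are not stated in the sources used here. Of 24663 rows, 21925 carried 1 gene symbol in the platform annotation, 818 several, and 1920 none. Rows with 1 symbol were reduced to the brightest row per gene by the mean over 6 arrays, leaving 21507 genes. No scanner intensities were used, detection above background could not be checked, and precision is limited by the number of arrays.

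The 2 groups were fitted by limma 3.58.1 (lmFit, eBayes; R 4.3.3) without covariates, with p-values adjusted by Benjamini-Hochberg over all 21507 genes. Subunit pairs were tested by an exact permutation test (scipy 1.17.1). The fit was tested on simulated data. Promoter sequences came from RefSeq on GRCm38.p6, which gave no other coordinate, since no source used here names the build of the array annotation.

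The genes named were members past the study's threshold, the highest and lowest fold change of each class, the genes of the pairs, and any receptor partner past the threshold. Members and lists were chosen with earlier results of these data known. Arrays with the same replicate number did not deviate together (correlations of −0.058 to −0.003), so the numbers were not used as pairs. Alternatives were the methods' t-test, a trended robust prior, quantile or median scaling, array weights, omission of dim genes, averaged rows, a replicate block, omission of each array, and a ratio limit of 0.8.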

Additional observations from a re-analysis of the deposited data

How the results depend on the processing

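Over the settings tried, 279 of 299 alternative values for the 22 named genes and pairs kept their direction and, for genes, their side of the threshold. This count is not a measure of stability, since several settings could not move a fold change. The methods' t-test, the trended robust prior, omission of dim genes, the replicate block, and the ratio limit of 0.8 left every fold change as it was. Averaged rows altered only *Grin2b* and its pair, and most named genes lay inside the fold limits from the start. The count of higher members was 1 and became 1 to 2 with single arrays left out, reaching 2 without Slug fl/fl array 2. Without Slug ΔLepRb array 2 it stayed 1 only because *Glra3* (0.37) passed in place of *Grin2c* (0.28). The count of lower members was 1, was 0 by the methods' t-test where *Glra1* did not pass, was 2 with a ratio limit of 0.8, and ranged from 0 to 2 with single arrays left out. *Glra1* was −0.55 to −0.23 with single arrays left out, and *Grin2c* was 0.28 to 0.51. With the labels of the groups exchanged, an alternative chosen after seeing the data, 2 members were higher and 0 lower. With the replicate block, 1 member was higher and 1 lower, as without it. Over all genes, 309 were higher and 124 lower, against 156 and 62 by the methods' t-test, 150 and 63 with dim genes left out of the test, 268 lower with a ratio limit of 0.8, and up to 463 and 189 with single arrays left out. No scaling moved the median of all genes by over 0.1.

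Fold changes near 0 changed sign. *Gria2* became −0.000389 with quantile normalization and −0.0331 to 0.0497 with single arrays left out. *Grin2b* became 0.0490 with the mean of rows, 0.00608 with array weights, and −0.0531 to 0.0310 with single arrays left out. Leaving out single arrays gave −0.00460 to 0.199 for *Grik1*, −0.208 to 0.0199 for *Grik4*, −0.200 to 0.0131 for *Gabrd*, and −0.195 to 0.0745 for *Glra1* minus *Glra2*. The cause was not tested. No array signal over background was available to limit the 8 dim members.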

Other observations

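Of 11 listed markers of the oligodendrocyte lineage, 10 were measured and 1 was past the threshold, *Cspg4* (NG2, of oligodendrocyte precursors), at 5.20, 5.10, and 5.04 in the Slug ΔLepRb-labeled arrays, against 4.76, 4.47, and 4.66 in the Slug fl/fl-labeled arrays. The log2 difference, 0.48 ± 0.11 (SE), had an adjusted p of 0.55 (limma), and the groups did not overlap. The groups also did not overlap for *Olig1* (0.23), *Pdgfra* (0.18), and *Gpr17* (0.31). Of all genes, 1.44% were higher past the threshold and 5.91% were higher without overlap. *Mog* (0.19) and *Mobp* (0.05) were above 0 in log2 fold change with overlapping groups. *Mbp* (−0.07), *Mag* (−0.02), *Cnp* (−0.12), and *Olig2* (−0.11) were below 0, so 6 markers were above 0 and 4 below. The summed linear level of the list, weighted toward its brightest gene *Mobp*, was 1640 to 1891 in the Slug ΔLepRb-labeled arrays, against 1597 to 1816 in the Slug fl/fl-labeled arrays. *Ccdc153*, a gene of ciliated ependymal cells, was lower, by −0.58 ± 0.11 (SE) in log2 values with an adjusted p of 0.40 (limma), and was the 1 of 8 measured tanycyte and ependymal markers past the threshold. The list split into 4 genes above 0 and 4 below, with a median log2 fold change of −0.05, and its other markers of ciliated cells, *Foxj1* (0.15) and *Tmem212* (0.03), were above 0.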
